A study of Mus musculus with 6 samples.

Results

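The KANK genes encode a small family of adaptor proteins, and the 4 mouse members, Kank1, Kank2, Kank3 and Kank4, were followed in every library of a Kap1 knockdown series. They are 4 of the 37991 genes with a count, and they were taken by symbol. Kank4 was chosen by its counts in the knockdown contrast, near 0 in control libraries and not in knockdown libraries, so that difference is given as a description with no test. Kank1, Kank2 and Kank3 were taken by family name as its comparison. All 4 members passed the filter on low counts, Kank4 only through the knockdown libraries.

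The cells were C2C12, a mouse myoblast line of the C3H strain that leaves the cell cycle and forms myotubes when serum is reduced. MT_shKap1 (1 library) and MT_shCtrl (1 library) were taken at 48 h of differentiation in horse serum with insulin, transferrin and selenium. MB_shKap1 (2 libraries) and MB_shCtrl (2 libraries) were proliferating myoblasts. Every culture had been transduced with an LV vector, a lentivirus, carrying sh-Kap1 in the shKap1 groups and sh-Luc, the luciferase hairpin, in the shCtrl groups. Kap1 is the name used for the protein encoded by Trim28, a corepressor that joins zinc finger proteins to chromatin-modifying enzymes. The series thus asks how knockdown of Kap1 changed the cytoplasmic polyA+ RNA of proliferating and of differentiating myoblasts. Whether the 2 replicates of an MB group were grown apart is not stated in the labels. P-values therefore describe how far these libraries scatter, and that scatter may be technical.

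KANK proteins sit at the rim of focal adhesions, the integrin-based contacts of a cell with its matrix. A short N-terminal motif binds talin, the protein that links integrins to actin, coiled coils bind liprins, and C-terminal ankyrin repeats bind the kinesin Kif21a. The proteins thereby bring the cortical complexes that hold microtubule ends to adhesions, and they lower actomyosin contractility. In mouse tissues Kank2 is typical of mesenchymal cells, Kank1 of epithelia and Kank3 of endothelium, and KANK4 in humans is a gene of inherited nephrotic syndrome.

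The start of Kank4 is shown first because it is the gene whose counts set the knockdown libraries apart, that of its antisense gene Kank4os because it lies inside Kank4, and that of Kank2 because it is the member expressed throughout. Each window runs from 250 bases before to 50 after the annotated start (RefSeq, GRCm38.p6), 5′ to 3′ on the gene's own strand, with CpG dinucleotides in capitals.
Kank4, chr4:98817488-98817787, minus strand: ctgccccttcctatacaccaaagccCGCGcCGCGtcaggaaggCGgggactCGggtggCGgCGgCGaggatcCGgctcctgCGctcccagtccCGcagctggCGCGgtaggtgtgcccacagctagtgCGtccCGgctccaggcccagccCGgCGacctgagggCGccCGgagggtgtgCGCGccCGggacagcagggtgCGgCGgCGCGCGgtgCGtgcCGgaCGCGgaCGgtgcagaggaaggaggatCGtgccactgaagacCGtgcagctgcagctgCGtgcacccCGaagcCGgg
Kank4os, chr4:98793518-98793817, plus strand: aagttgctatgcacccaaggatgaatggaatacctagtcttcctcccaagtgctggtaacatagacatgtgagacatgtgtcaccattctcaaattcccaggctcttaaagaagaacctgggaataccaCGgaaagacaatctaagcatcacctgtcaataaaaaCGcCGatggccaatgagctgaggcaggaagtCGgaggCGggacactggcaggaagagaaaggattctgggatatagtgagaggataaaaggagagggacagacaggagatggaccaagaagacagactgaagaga
Kank2, chr9:21798497-21798796, minus strand: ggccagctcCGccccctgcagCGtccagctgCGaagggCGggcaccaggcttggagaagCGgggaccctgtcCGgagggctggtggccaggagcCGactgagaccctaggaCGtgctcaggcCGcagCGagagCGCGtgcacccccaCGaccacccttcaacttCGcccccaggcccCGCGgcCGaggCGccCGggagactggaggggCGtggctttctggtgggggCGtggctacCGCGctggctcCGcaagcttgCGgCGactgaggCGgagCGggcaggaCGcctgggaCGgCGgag

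The Kank4 window was dense in CpG, with 38 of them and a GC content of 74.0%. Of 32851 windows of the same length, 4.95% held as many. Kank2 had the same GC content with 31 CpG (10.6% of windows held as many), whereas Kank4os had 5 CpG and 47.3% GC, close to the median window of 7 CpG. Kank1 (chromosome 19, plus strand) had 29 CpG and Kank3 (chromosome 17, plus strand) had 15. The letters CAGCTG, which read the same on both strands and are one form of the E-box, occurred 3 times in the Kank4 window and once in that of Kank2. They were absent from the windows of Kank1, Kank3 and Kank4os, and were present in 16.3% of all windows. GGGCGG, searched on both strands and overlapping a CpG by its own letters, occurred 3 times each at Kank1 and Kank3 and 2 times at Kank2, and was in 35.7% of all windows. TATAAA, searched on both strands and present in 13.6% of all windows, was found in none of these 5. These are matches of letters and say nothing about binding.

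The libraries held 36247530 to 49839994 counts on genes. Trim28 had 114 CPM (counts scaled to library size, here with sizes adjusted by the TMM method) in MT_shKap1, against 394 CPM in MT_shCtrl. In myoblasts it had 150 and 102 CPM in MB_shKap1, against 596 and 428 CPM in MB_shCtrl (replicates 1 and 2). Every shKap1 library thus lay below every shCtrl library in the targeted gene. The fit of all 16472 genes tested, made with edgeR's quasi-likelihood test, called no gene in any of the 5 contrasts at an adjusted p of 0.05, and a second fit added a replicate block. That block is a term for a mark in the deposited file names, which replicate 1 of both MB groups and both MT libraries carry and whose meaning is not stated. Replicate 2 of both MB groups stood apart from replicate 1. The 6 myotube markers summed to 103 CPM in MT_shKap1 and 6466 CPM in MT_shCtrl. In MB_shKap1 they summed to 11.3 and 68.5 CPM (replicates 1 and 2), and in MB_shCtrl to 11.01 and 119 CPM. The 5 myoblast markers were counted in every library. Macrophage markers summed to 1.87 to 4.64 CPM, with Adgre1 at 0 throughout, and podocyte markers to 30.7 to 86.9 CPM. Fibroblast markers summed to 6857 CPM in MT_shKap1, against 9730 CPM in MT_shCtrl, and to 5599 and 6046 CPM in MB_shKap1, against 3401 and 3681 CPM in MB_shCtrl. Nearly all of each sum was Col1a1, with 6706 CPM in MT_shKap1 and 9434 CPM in MT_shCtrl. Dcn was also lower in MT_shKap1 (106 against 256 CPM), whereas Pdgfra was higher there (45.4 against 39.8 CPM). Thy1 had 0 counts in MT_shKap1 and 1 in MT_shCtrl.

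Kank4 was the member whose counts separated knockdown from control libraries. It had 264 counts (6.82 CPM) in MT_shKap1, against 4 counts (0.0826 CPM) in MT_shCtrl. In myoblasts it had 45 and 845 counts (0.9504 and 19.6 CPM) in replicates 1 and 2 of MB_shKap1, against 1 count in each replicate of MB_shCtrl (0.0242 and 0.0252 CPM). All 3 shKap1 libraries lay above all 3 shCtrl libraries, and the 2 MB_shKap1 replicates were farther from each other than replicate 1 was from MT_shKap1. The ratio of CPM, shKap1 over shCtrl, was 82.6 in MT (95% exact interval 31.9 to 305). It was 39.3 in the replicate 1 pair of MB (6.70 to 1586) and 777 in the replicate 2 pair (139 to 30730). Summed over replicates, 890 counts in MB_shKap1 stood against 2 in MB_shCtrl, a ratio of 398 (110.0 to 3295). Without MB_shKap1 replicate 2 that ratio was 38.5, and without replicate 1 it was 794. These intervals cover counting error only, and their width comes from the 1 to 4 counts on the control side. For scale, 3 counts correspond to 0.0602 to 0.0828 CPM across the libraries, so Kank4 in both MB_shCtrl libraries was below that level.

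Within the knockdown myoblasts, Kank4 in replicate 2 was 20.6 times its level in replicate 1 (95% exact interval 15.3 to 28.5). Trim28 in replicate 2 was 0.680 times its level in replicate 1 in MB_shKap1, and 0.719 times in MB_shCtrl, so it was lower in replicate 2 with either hairpin. MT_shKap1 lay between the MB_shKap1 replicates in both Kank4 and Trim28. Among the shCtrl libraries, Trim28 was lowest in MT_shCtrl, at 394 CPM. Like Kank4, myotube markers were higher in replicate 2 of MB_shKap1 than in replicate 1. Kank4 had 1 count in MB_shCtrl replicate 2, where those markers summed to 119 CPM, and 4 counts in MT_shCtrl, where they summed to 6466 CPM. The part of Trim28, of the myotube markers or of the fibroblast markers in the values of Kank4 was not tested. In bulk RNA, fewer cells with a transcript and less of it per cell cannot be told apart.

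**Figure D1:**
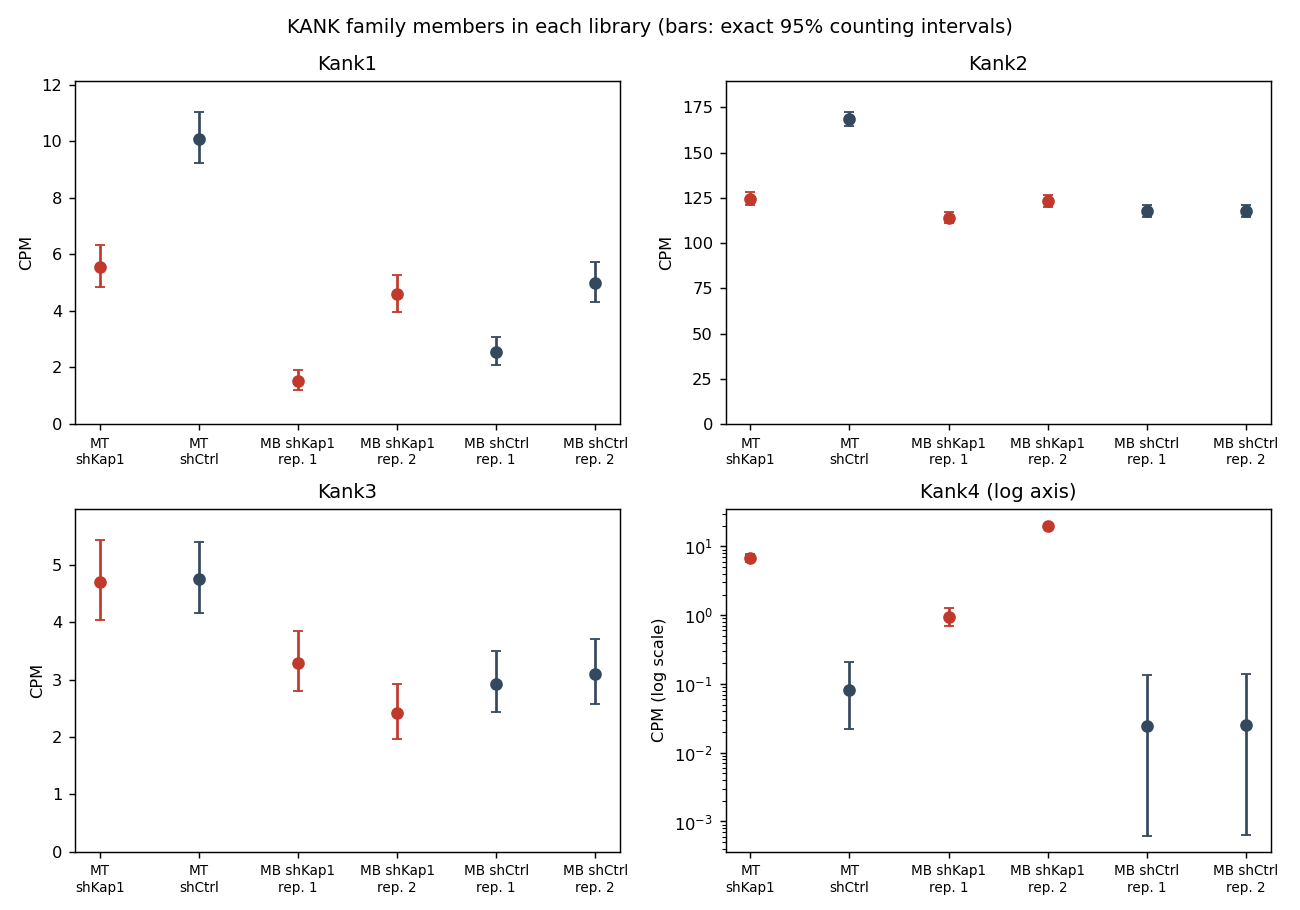
CPM of each KANK member in the 6 libraries, 1 panel per gene, with shKap1 libraries in red and shCtrl libraries in dark blue, and bars for exact 95% counting intervals. The axis of Kank4 is logarithmic and the others start at 0. The 3 shKap1 libraries hold Kank4 at 0.9504 to 19.6 CPM and the 3 shCtrl libraries at 0.0242 to 0.0826 CPM, whereas Kank2 lies between 114 and 169 CPM throughout.

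Whether Kank4 RNA differed between MT and MB within the knockdown cells depended on which myoblast library it was set against. MT_shKap1 was 7.17 times MB_shKap1 replicate 1 (95% exact interval 5.21 to 10.1) and 0.348 times replicate 2 (0.302 to 0.400). In the edgeR fit the log2 change, MT_shKap1 against MB_shKap1, was -0.59 with a standard error of 1.66 and an adjusted p of 0.89. With the replicate block, which sets MT_shKap1 in effect against replicate 1, it was 2.78 with a standard error of 0.370 and an adjusted p of 0.000633. The direction was thus set by the choice of fit, and no stage difference of Kank4 in knockdown cells is given here. In control cells, 4 counts in MT_shCtrl against 1 and 1 in MB_shCtrl allow no fold.

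Kank4 took up a very different share of the family's RNA in knockdown and control libraries. Divided by exon length (4795 bases for Kank4, 6166 for Kank1, 5235 for Kank2 and 3260 for Kank3), its level was 1.42 CPM per kilobase in MT_shKap1, against 0.0172 in MT_shCtrl. In myoblasts the level per kilobase was 0.198 and 4.09 in MB_shKap1, against 0.00504 and 0.00526 in MB_shCtrl. Kank4 thereby made 5.16% of the summed family level per kilobase in MT_shKap1, against 0.0488% in MT_shCtrl. Its share was 0.853% and 14.1% in MB_shKap1, against 0.0212% and 0.0217% in MB_shCtrl.

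Kank2 ranked first in every library, with 80.8% to 94.5% of the family level per kilobase. Kank4 ranked last in all 3 shCtrl libraries and in MB_shKap1 replicate 1, in the third place in MT_shKap1 and in the second place in MB_shKap1 replicate 2. The level of Kank2 per kilobase was 16.7 times that of Kank4 in MT_shKap1, against 1870 times in MT_shCtrl. It was 109.8 and 5.75 times in MB_shKap1, against 4453 and 4280 times in MB_shCtrl. In MT_shKap1 Kank3 and Kank4, at 1.44 and 1.42 CPM per kilobase, differed by less than the counting error of either. Kank1 and Kank3 changed places between libraries. Kank3 was above Kank1 in MT_shKap1 (1.44 and 0.901 CPM per kilobase) and below it in MT_shCtrl (1.46 and 1.64). In MB_shKap1 replicate 2 the order of Kank1 and Kank3 turned with the length used, since 0.745 and 0.740 CPM per kilobase of all exons became Kank3 above Kank1 by the longest transcript.

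**Figure D2:**
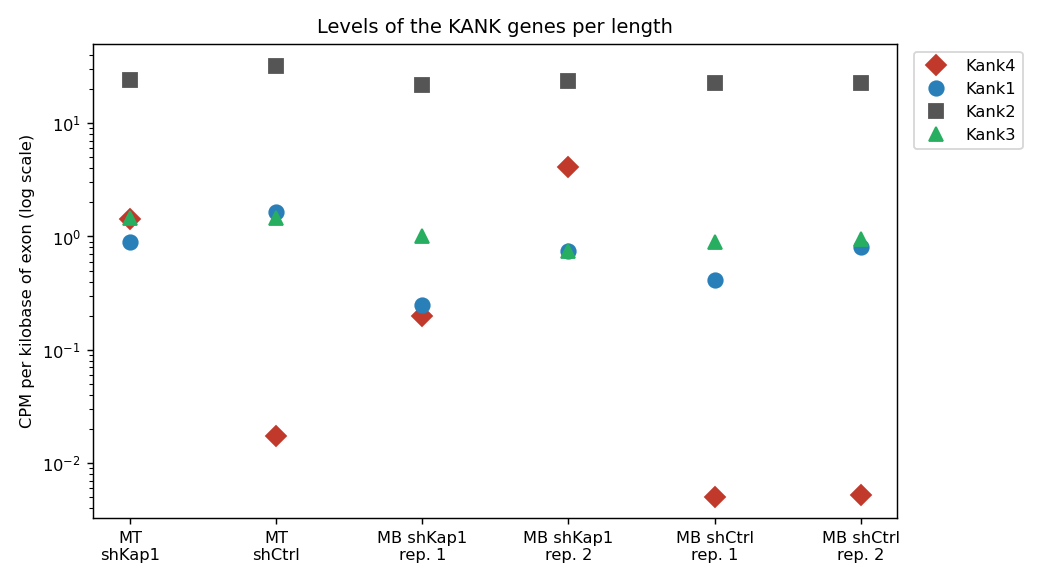
CPM per kilobase of exon for the 4 KANK genes in each library, on a log axis, 1 point per gene and library. Kank2 lies at 21.8 to 32.2 in all libraries, and Kank4 moves between the bottom, at 0.00504 in MB_shCtrl replicate 1, and the second place, at 4.09 in MB_shKap1 replicate 2.

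A gene on the opposite strand followed Kank4. Kank4os, an antisense RNA gene on the plus strand of chromosome 4, lies inside the Kank4 gene, which is on the minus strand, and their exons (2251 bases for Kank4os) share 0 bases in the GENCODE M21 annotation. Kank4os had 146 counts (3.77 CPM) in MT_shKap1, against 81 counts (1.67 CPM) in MT_shCtrl. It had 123 and 221 counts (2.60 and 5.13 CPM) in MB_shKap1, against 55 and 52 counts (1.33 and 1.31 CPM) in MB_shCtrl. As with Kank4, all shKap1 libraries lay above all shCtrl libraries and replicate 2 of MB_shKap1 was the highest, but Kank4os was counted in control cells too.

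The ratio of Kank4os, shKap1 over shCtrl, was 2.25 in MT (95% exact interval 1.71 to 2.996). It was 1.95 in the replicate 1 pair of MB (1.41 to 2.74) and 3.91 in the replicate 2 pair (2.88 to 5.39). In MB the log2 change was 1.55 with a standard error of 0.442, an unadjusted p of 0.0228 and an edgeR adjusted p of 1. With the replicate block it was 1.48 with an adjusted p of 0.0237. In MT it was 1.17, with an edgeR adjusted p of 0.671 and, with the block, 0.0634. How strand was treated in the counting is not known from the labels, so reads from introns of Kank4 and from Kank4os cannot be told apart in the Kank4os count.

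**Figure D3:**
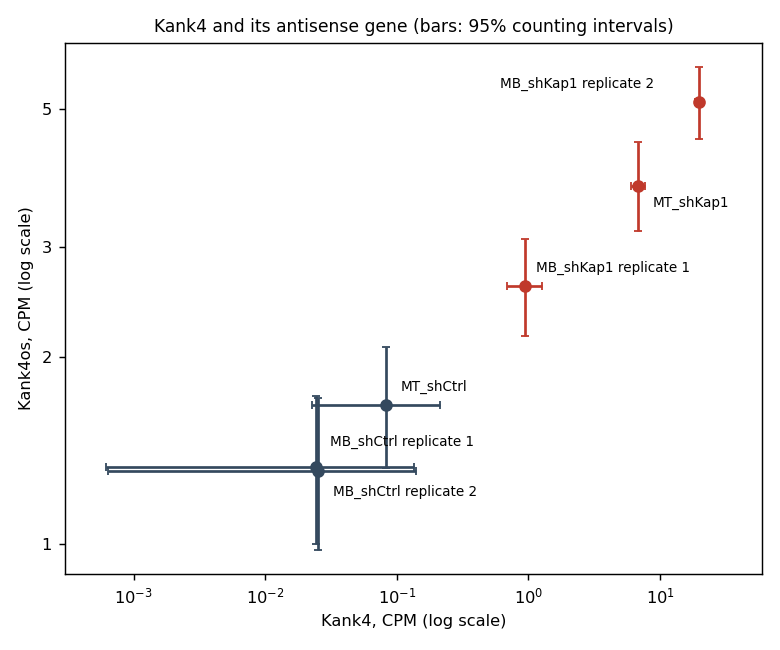
Kank4os against Kank4 in the 6 libraries, both in CPM on log axes, with shKap1 libraries in red and shCtrl libraries in dark blue, and bars for 95% counting intervals. The 3 shKap1 libraries lie above and to the right of the 3 shCtrl libraries, and MB_shKap1 replicate 2 is highest in both genes, at 19.6 CPM for Kank4 and 5.13 CPM for Kank4os.

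The genes beside Kank4 on chromosome 4 were read on both sides. On the side of lower coordinates the nearest gene counted in every library was Patj, a scaffold of epithelial polarity. Patj had 10.6 CPM in MT_shKap1, against 31.3 CPM in MT_shCtrl. It had 7.37 and 8.49 CPM in MB_shKap1, against 4.64 and 5.53 CPM in MB_shCtrl. Its log2 change was -1.56 in MT (edgeR adjusted p of 0.49, and 0.000376 with the block) and 0.64 in MB (adjusted p of 1, and 0.0373 with the block), so the sign differed between stages.

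On the other side, Usp1, a deubiquitinase of the DNA damage response, had 95.6 CPM in MT_shKap1, against 81.4 CPM in MT_shCtrl. It had 145 and 199 CPM in MB_shKap1, against 170 and 191 CPM in MB_shCtrl. Usp1 was not called between shKap1 and shCtrl at either stage by edgeR, with the block (adjusted p of 0.304 in MT and 0.751 in MB) or without it. L1td1, an RNA-binding protein derived from a LINE-1 element, had 0 counts in both MT libraries and in replicate 1 of both MB groups. In replicate 2 it had 25 counts in MB_shKap1, against 15 in MB_shCtrl. I0C0044D17Rik had 0 to 2 counts in a library, and Gm17376, Gm12846, Gm26154 and Gm12851 had 0 in all 6 libraries.

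**Figure D4:**
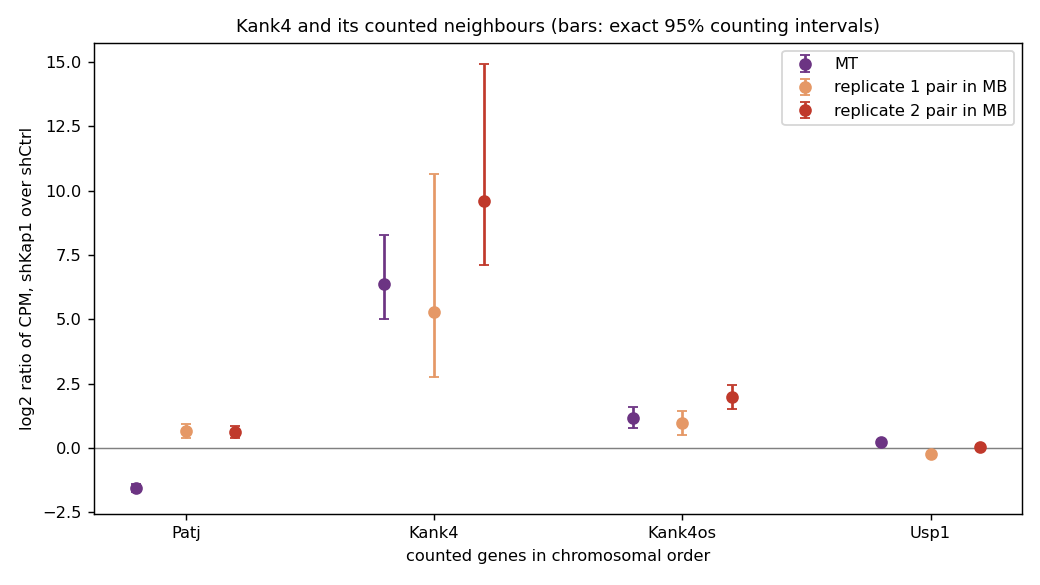
Log2 ratio of CPM, shKap1 over shCtrl, for Kank4 and genes counted around it in their order on the chromosome, with MT, the replicate 1 pair and the replicate 2 pair of MB as separate points and bars for exact 95% counting intervals. Kank4 lies far above its neighbours in all 3 comparisons, Kank4os is above 0 in all 3, Patj is above 0 in both MB pairs and below it in MT (log2 change of -1.56), and Usp1 lies near 0.

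Kank1, Kank2 and Kank3 were counted in control and knockdown libraries alike. Between MT_shKap1 and MT_shCtrl edgeR called 0.0% of the 16472 genes without the block and 20.3% with it, among them 1 of the 3 relatives, Kank2. No relative had an unadjusted p under 0.05 in MT, as 8.4% of all genes did, and DESeq2 called none of the 3 and 2.23% of all genes. Between MB_shKap1 and MB_shCtrl none of the 3 was called, where edgeR called 0.0% of all genes without the block and 3.84% with it. None of them had an unadjusted p under 0.05 there, as 2.76% of all genes did, and DESeq2 called none of them and 0.304% of all genes. The interaction, the knockdown effect in MT minus that in MB, was called for 0 of the 3 by edgeR with or without the block and by DESeq2, beside 10.5%, 0.0% and 1.02% of all genes, and none had an unadjusted p under 0.05, as 5.01% of all genes did.

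Kank2, the talin-binding adaptor of mesenchymal cells, was the abundant member. It had 4826 counts (125 CPM) in MT_shKap1, against 8164 counts (169 CPM) in MT_shCtrl. It had 5395 and 5307 counts (114 and 123 CPM) in MB_shKap1, against 4861 and 4673 counts (118 and 118 CPM) in MB_shCtrl. MT_shCtrl stood above the other 5 libraries, which spanned 114 to 125 CPM.

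In MT the ratio of Kank2, MT_shKap1 over MT_shCtrl, was 0.739 (95% exact interval 0.713 to 0.766), a log2 change of -0.44. Its edgeR adjusted p was 0.616, and 0.0425 with the block, a call that was lost when the block was fitted with total library size (log2 change of -0.30). With 1 library per group this difference has no replicate check of its own. In myoblasts Kank2 averaged 118.5 ± 6.50 CPM in MB_shKap1 and 117.7 ± 0.240 CPM in MB_shCtrl (SD, n = 2 each), a log2 change of 0.01 with a standard error of 0.129. The knockdown effect in MT minus that in MB was -0.45 for Kank2 on the log2 scale, with an edgeR adjusted p of 0.997 (0.118 with the block).

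Between stages in knockdown cells, MT_shKap1 against MB_shKap1, the log2 change of Kank2 was 0.07 with a standard error of 0.158 and an edgeR adjusted p of 0.852, and 0.558 with the block. DESeq2 called none of the 3 relatives in that step, beside 5.12% of all genes, and none had an unadjusted p under 0.05 in edgeR, as 15.3% of all genes had. In control cells Kank2 was higher in MT_shCtrl than in both MB_shCtrl libraries, by ratios of 1.43 and 1.43. The log2 change was 0.52 with a standard error of 0.156 and an edgeR adjusted p of 0.15. With the block it was 0.55 with an adjusted p of 0.00465, in a contrast in which 44.9% of all genes were called, and DESeq2 gave 0.55 with an adjusted p of 0.0487, beside 14.4% of all genes called. Kank2 was also the 1 relative with an unadjusted p under 0.05 there (0.0268), as 25.3% of all genes had.

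Kank1, the first member described and a regulator of actin assembly, was low in myoblasts and varied with the replicate. It had 215 counts (5.55 CPM) in MT_shKap1, against 489 counts (10.1 CPM) in MT_shCtrl. It had 72 and 198 counts (1.52 and 4.59 CPM) in MB_shKap1, against 105 and 198 counts (2.54 and 4.996 CPM) in MB_shCtrl. Replicate 2 was above replicate 1 in both MB groups, by 3.02 times in MB_shKap1 and 1.97 times in MB_shCtrl, and the MB groups overlapped.

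The ratio of Kank1, shKap1 over shCtrl, was 0.550 in MT (95% exact interval 0.466 to 0.647), a log2 change of -0.86 with an edgeR adjusted p of 0.85, and 0.0548 with the block. It was 0.599 in the replicate 1 pair of MB (0.437 to 0.816) and 0.920 in the replicate 2 pair (0.751 to 1.13). Over both, MB_shKap1 averaged 3.06 ± 2.17 CPM and MB_shCtrl 3.77 ± 1.74 CPM (SD, n = 2 each), a difference within the spread between replicates. The log2 change in MB was -0.30 with an adjusted p of 1.

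Between stages Kank1 was higher in MT than in MB in knockdown and in control cells, by an amount that turned on the replicate. In knockdown cells MT_shKap1 was 3.65 times MB_shKap1 replicate 1 and 1.21 times replicate 2. The log2 change was 0.86 with an edgeR adjusted p of 0.632, and 1.68 with an adjusted p of 0.00168 with the block, a fit that called 33.1% of all genes in that contrast. In control cells MT_shCtrl was 3.98 times MB_shCtrl replicate 1 and 2.02 times replicate 2. There the log2 change was 1.42 with an edgeR adjusted p of 0.331, and 2.15 with an adjusted p of 0.00012 with the block. Like Kank1, myotube markers were highest in MT_shCtrl and higher in replicate 2 than in replicate 1 of each MB group. The order of other libraries differed. MT_shKap1 had less of the markers than MB_shCtrl replicate 2 (103 against 119 CPM) but more Kank1 (5.55 against 4.996 CPM). MB_shKap1 replicate 1 had slightly more of them than MB_shCtrl replicate 1 (11.3 against 11.01 CPM) but less Kank1 (1.52 against 2.54 CPM). The part of myotube markers in the Kank1 values was not tested. The effect of the knockdown on Kank1 did not differ detectably between stages, at -0.56 on the log2 scale with an edgeR adjusted p of 1 (0.463 with the block).

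Kank3, whose product is known mainly from endothelial cells, was low and even. It had 182 counts (4.70 CPM) in MT_shKap1, against 230 counts (4.75 CPM) in MT_shCtrl. It had 156 and 104 counts (3.30 and 2.41 CPM) in MB_shKap1, against 121 and 123 counts (2.93 and 3.10 CPM) in MB_shCtrl. The MB groups overlapped, and both MT libraries lay above all 4 MB libraries.

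The ratio of Kank3, shKap1 over shCtrl, was 0.990 in MT (95% exact interval 0.810 to 1.21). It was 1.13 (0.882 to 1.44) in the replicate 1 pair and 0.778 (0.593 to 1.02) in the replicate 2 pair of MB. The log2 change was -0.01 in MT and -0.08 in MB, with edgeR adjusted p of 0.997 and 1, and in MT its sign turned with total library size (0.12). Between stages it was 0.72 in shKap1 cells (edgeR adjusted p of 0.405, and 0.116 with the block) and 0.65 in shCtrl cells (0.324, and 0.144 with the block). Of the endothelial markers, the 6 together summed to 2.97 CPM in MT_shKap1, 1.34 CPM in MT_shCtrl, 0.845 and 0.302 CPM in MB_shKap1 and 0.556 and 0.328 CPM in MB_shCtrl, and Tie1 was at 0 throughout. Most of the sum in MT_shKap1 was Tek, with 105 counts (2.71 CPM), against 41 counts (0.847 CPM) in MT_shCtrl. Pecam1 and Cdh5 went the other way, with 9 and 1 counts in MT_shKap1 against 18 and 6 in MT_shCtrl. Kdr and Emcn had 0 in both MT libraries. The part of endothelial markers in the Kank3 values was not tested. Kank3 shares 88 exon bases with Rps28, an abundant ribosomal protein gene, and reads from those bases are uncertain.

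The genes that KANK proteins work with were then read as 3 lists of 43 genes in all, every one of them counted in every library. Without the block edgeR called none of the 43, and 0.0% of all genes, in any of the 5 contrasts, and 4 had an unadjusted p under 0.05 between MT_shKap1 and MT_shCtrl, against 1 between MB_shKap1 and MB_shCtrl. With the block 8 of the 43 (18.6%) were called in MT, 3 higher and 5 lower, beside 20.3% of all genes. In MB 2 of the 43 (4.65%) were called, both higher, beside 3.84% of all genes. Both shares were near that of all genes.

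In the cortical complex itself, 12 genes with talin, 1 rose and 1 fell in MT with the block, where 9.09% of all genes rose and 11.2% fell, and none was called in MB. Phldb2, a membrane anchor of the complex, had 350 CPM in MT_shKap1, against 236 CPM in MT_shCtrl, a log2 change of 0.57 (edgeR with the block, adjusted p of 0.0157). Clasp1, which stabilises microtubule ends, had 87.2 CPM in MT_shKap1, against 130 CPM in MT_shCtrl, a log2 change of -0.58 (adjusted p of 0.0119). Talin 1 itself, Tln1, had 533 CPM in MT_shKap1, against 546 CPM in MT_shCtrl, and 651 and 702 CPM in MB_shKap1, against 709 and 672 CPM in MB_shCtrl. Kif21a, the kinesin bound by the ankyrin repeats, had 42.3 CPM in MT_shKap1, against 51.8 CPM in MT_shCtrl, and 77.8 and 68.9 CPM in MB_shKap1, against 87.2 and 62.5 CPM in MB_shCtrl.

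The liprin genes Ppfia1 and Ppfibp1, the scaffold gene Erc1 and the plus-end gene Clasp2 were likewise not called between shKap1 and shCtrl at either stage. The median log2 change of the 12 was -0.10 in MT, beside 0.02 for all genes, and -0.03 in MB, beside -0.01. Between stages, with the block, 6 of the 12 were lower in MT_shKap1 than in MB_shKap1 (Kif21a, Erc1, Clasp1, Clasp2, Phldb1 and Dynll1) and Phldb2 was higher, beside 16.5% of all genes lower and 16.6% higher. In control cells 2 of 12 fell, Kif21a and Clasp2, and none rose, beside 22.6% of all genes lower and 22.3% higher. Whether these steps differ was tested gene by gene as the interaction, which called none of the 12 with or without the block, beside 10.5% and 0.0% of all genes.

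Of the 15 genes of contractility and other partners, 2 rose in MT and 2 in MB with the block, and none fell. Beside them 9.09% of all genes rose and 11.2% fell in MT, and 2.5% rose and 1.34% fell in MB. Mylk, the kinase that phosphorylates myosin light chain, had 47.1 CPM in MT_shKap1, against 26.97 CPM in MT_shCtrl. It had 17.6 and 24.0 CPM in MB_shKap1, against 7.72 and 9.82 CPM in MB_shCtrl. Both MB_shKap1 libraries lay above both MB_shCtrl libraries, and MT has 1 library per group. The log2 change was 0.80 in MT (adjusted p of 0.00446 with the block, 0.616 without it) and 1.24 in MB with the block (0.000434) and 1.25 without it (adjusted p of 1). Myl9, a light chain that this kinase acts on, had 274 and 283 CPM in MB_shKap1, against 153 and 221 CPM in MB_shCtrl, a log2 change of 0.60 (adjusted p of 0.0375 with the block). Cfl1, the actin-severing cofilin, had 1242 CPM in MT_shKap1, against 895 CPM in MT_shCtrl, a log2 change of 0.47 (0.0449 with the block). Rock1, Daam1 and Ncoa1, the coactivator that human KANK2 binds, were not called in either knockdown contrast.

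Of the 16 core adhesion genes, 4 fell in MT with the block and none rose, beside 11.2% of all genes lower and 9.09% higher. None was called in MB, beside 3.84% of all genes. Pxn, which encodes paxillin, had 47.9 CPM in MT_shKap1, against 138 CPM in MT_shCtrl, and 35.1 and 42.7 CPM in MB_shKap1, against 53.5 and 48.4 CPM in MB_shCtrl. Its log2 change in MT was -1.53 (adjusted p of 0.000313 with the block, 0.473 without it). Vcl, which encodes vinculin, had 160 CPM in MT_shKap1, against 332 CPM in MT_shCtrl, a log2 change of -1.05 (0.000837 with the block). Vasp and Bcar1, an actin-elongation factor and an adhesion scaffold, each had a log2 change of -0.67 (0.00576 for Vasp and 0.00893 for Bcar1 with the block). The median of the 16 was -0.05 in MT, beside 0.02 for all genes. Myotube markers stood at 103 CPM in MT_shKap1 and 6466 CPM in MT_shCtrl, and their part in these values was not tested.

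**Figure D5:**
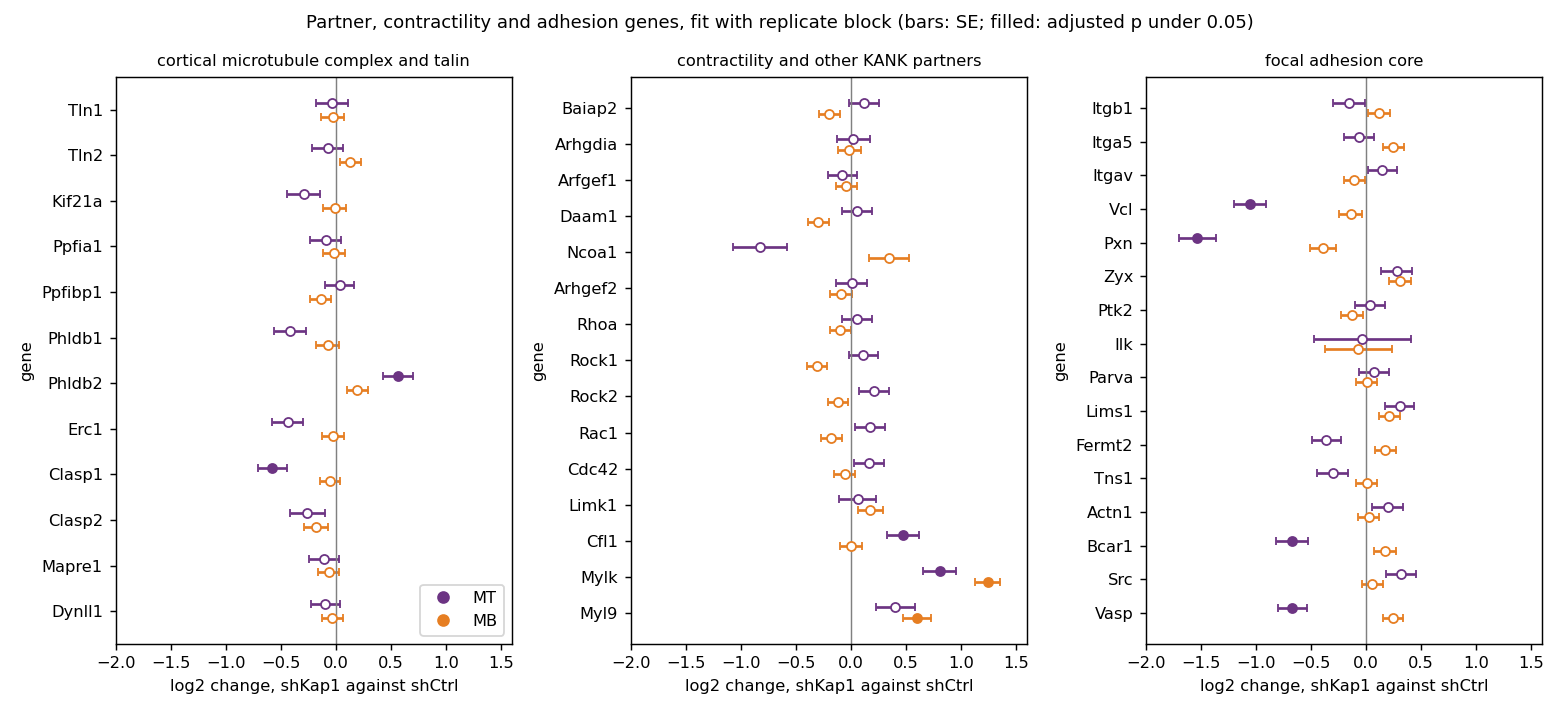
Log2 change, shKap1 against shCtrl, of the 43 partner, contractility and adhesion genes in the edgeR fit with the replicate block, with MT in purple and MB in orange, bars for standard errors and filled points for an adjusted p under 0.05. In MT 8 points are filled, led by Pxn at -1.53 and Vcl at -1.05 on the low side, and in MB 2, Mylk at 1.24 and Myl9 at 0.60.

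The genes whose levels ran most like each member were found by Pearson's correlation of log2(CPM + 0.1) over the 6 libraries, among 12532 genes, as a description. The 6 libraries share their stage, hairpin and replicate, so many genes reach a high value. For Kank4 the first was Kank4os (r = 0.994), followed by Mindy3 (0.982), Syde2 (0.968), Zfp110 (0.967) and Lmbr1 (0.961). Mindy3, a deubiquitinase gene, had 81.0 CPM in MT_shKap1, against 34.6 CPM in MT_shCtrl. It had 68.0 and 116 CPM in MB_shKap1, against 34.5 and 36.2 CPM in MB_shCtrl. With CPM + 1 in place of CPM + 0.1, Kank4os and Lmbr1 were among the first 5 again and the other 3 were not.

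For the relatives the lists were different genes. The first 3 for Kank2 were Hsd11b1 (r = 0.998), Abca2 (0.996) and Prr33 (0.996), all highest in MT_shCtrl. Hsd11b1, which activates glucocorticoids, had 0.646 CPM in MT_shKap1, against 25.0 CPM in MT_shCtrl, and 0.0845 and 0.511 CPM in MB_shKap1, against 0.218 and 0.278 CPM in MB_shCtrl. For Kank1 they were Rhbdd1 (0.994), Vps45 (0.993) and Arid5a (0.991), and for Kank3 Ranbp9 (0.991), 1600012H06Rik (0.986) and H3f3a (0.985). With CPM + 1, 2 of the 3 stayed for Kank2 and for Kank3 and 0 for Kank1.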

How the data were processed

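The authors deposited whole-number read counts per Ensembl gene, 1 file for each of the 6 libraries, aligned to mm9 with TopHat2 2.0.11 and counted with HTSeq per the submitters' processing notes. The annotation release, strand setting and chemistry were not found in the labels. Lines that name no gene were dropped before scaling: reads outside genes were 5.18% to 8.07% and ambiguous reads 2.81% to 2.93%. Symbols, exon lengths and overlaps came from GENCODE M21 (GRCm38) by Ensembl identifier, and 32919 identifiers, with 99.04% of the counts, had a symbol. Promoter windows are RefSeq sequences of GRCm38.p6, matched by symbol for all 4 members and Kank4os. mm9 coordinates were not used.

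The counts went into edgeR 4.0.16 (R 4.3.3; quasi-likelihood test, robust, TMM, filterByExpr by group), with all 6 libraries in 1 fit with a mean per group, so that the lone MT libraries are assumed to vary like the MB ones. Benjamini-Hochberg adjustment was over 16472 genes within each contrast, at a threshold of 0.05. Residual degrees of freedom were 2 and the biological coefficient of variation was 32.9%. An alternative fit adds the replicate block, which left 1 degree of freedom and 9.74%. Other alternatives were DESeq2 1.42.0, other scalings, no filter, MB libraries alone and leaving out each MB library. The scripts were tested on simulated counts. Intervals and the floor of 3 counts cover counting error only.

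The members, lists and rule for named genes were chosen with earlier results of these data known. The rule names the 4 members, Trim28, the 5 nearest genes on each side of Kank4, the genes of each list called with the block (the 6 with the smallest knockdown p where more are called, always with 8 genes of the cortical complex), and the 5 or 3 most alike genes. Not every gene so chosen is reported here. Kank4os was added by its position inside Kank4.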

Additional observations from a re-analysis of the deposited data

Results flagged for a closer look

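Patj, beside Kank4 on chromosome 4, differed between stages in its response to the knockdown. The knockdown effect in MT minus that in MB was -2.20 on the log2 scale (edgeR with the replicate block, adjusted p of 0.000326, and 0.927 without it). The same interaction test called 4 of the 43 genes of the 3 lists (9.3%), beside 10.5% of all genes. These 4 were among the 16 core adhesion genes: Pxn at -1.14 (adjusted p of 0.00797), Vasp at -0.915 (0.00564), Vcl at -0.912 (0.00952) and Bcar1 at -0.844 (0.0126). Without the block edgeR called none of these 5, with an unadjusted p under 0.05 for Patj, Pxn and Vasp. The MT side of each difference rests on 1 library per group, and myotube markers stood at 103 CPM in MT_shKap1 and 6466 CPM in MT_shCtrl; their part in these differences was not tested.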

How the results depend on the processing

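In edgeR with TMM and the filter, no gene was called in any contrast without the replicate block. The check of the pairing had only 2 pairs: replicate 2 minus replicate 1 correlated across genes at 0.785 between the MB groups, and the numbers go with a file-name mark whose meaning is not given. The block turned Kank4, MT against MB in shKap1, to 2.78, and brought calls for Kank2 in MT (-0.44), for Kank1 and Kank2 between stages in shCtrl (2.15 and 0.55) and for Kank1 between stages in shKap1 (1.68). It changed no other call of Kank1, Kank2 or Kank3. Kank4 between shKap1 and shCtrl, and between stages in shCtrl at 1 to 4 counts, is given no call. Total library size and DESeq2 size factors were tried with the block after seeing the data. They gave 2.85 and 2.77 for Kank4, 2.12 and 2.18 for Kank1 and 0.52 and 0.58 for Kank2 between stages in shCtrl, and 1.76 and 1.67 for Kank1 in shKap1, all calls. Kank2 in MT was called with DESeq2 size factors only (-0.478). DESeq2 gave 0.552 for Kank2 between stages in shCtrl, a call. Total library size turned Kank3 in MT to 0.122. Leaving out each MB library in turn gave Kank1 -1.31 to 0.286, Kank2 -0.0466 to 0.0642 and Kank3 -0.321 to 0.129 in MB, interactions of -1.15 to 0.444 for Kank1 and -0.143 to 0.307 for Kank3, and -1.52 to 2.84 for Kank4 between stages in shKap1. The Kank4 ratio in MB ran from 38.5, without MB_shKap1 replicate 2, to 794, and the stage calls in shCtrl from 0 to 141, above 0 without either MB_shKap1 replicate. The MT libraries cannot be left out of their own contrasts. Whole-table calls were, by DESeq2 and with the block, 368 and 3344 in MT, 50 and 632 in MB (429 with the block and MB libraries only), 843 and 5446 between stages in shKap1, 2370 and 7398 between stages in shCtrl, and 168 and 1722 in the interaction. In shCtrl between stages, DESeq2 size factors gave 78 and no filter 582, and in shKap1 no filter gave 2. Of the 43 partner genes, DESeq2 and the block called 1 and 8 in MT, 1 and 2 in MB (1 with the block and MB libraries only), 2 and 18 between stages in shKap1, 5 and 16 in shCtrl (1 with no filter), and the block 4 in the interaction. Causes were not tested. Depth limits Kank4 in control cells, at 1 to 4 counts.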
